A study of Mus musculus with 4 samples.

Results

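Cldn1, Cd200r2, Rerg and Vldlr are 4 genes of the 14860 measured, and were chosen because their highest value of the series lies in differentiating cells treated with an siRNA against MUNC (siMUNC). Their values on the 4 arrays were known when they were picked, so the peak itself is a description and carries no test. Each gene had 1 transcript cluster of its own, the unit that this type of array reports (6844819 for Cldn1, 6841142 for Cd200r2, 6957766 for Rerg and 6868899 for Vldlr). The cells were C2C12, an established line of mouse myoblasts, which proliferate in rich serum and form myotubes once serum is reduced. MUNC is a noncoding RNA from the region upstream of Myod1, which encodes the muscle-determining factor MyoD. All groups are C2C12 cells that received an siRNA: control proliferating and siMUNC proliferating cells were grown in 10% fetal bovine serum, and control differentiating and siMUNC differentiating cells were collected 3 days after a change, at 80% confluence, to 2% horse serum. Each of the 4 groups is 1 array of 1 culture, so there are no replicates to check a difference against, p-values are not given, and precision is limited by the number of arrays.

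The genes encode proteins of different kinds. Claudin-1 (Cldn1) is a membrane protein that builds the sealing strands of tight junctions, chiefly in epithelia. CD200 receptor 2 (Cd200r2) belongs to a family of immunoglobulin-type receptors of myeloid and mast cells. The founding member of that family, Cd200r1, binds the surface protein CD200 and dampens the cell that carries it, whereas the shorter mouse relatives such as Cd200r2 pair with the signalling adaptor DAP12, encoded by Tyrobp. RERG (Rerg) is a small GTPase of the Ras superfamily that was described in human breast tumours as estrogen-regulated and as slowing growth. The very low density lipoprotein receptor (Vldlr) takes up triglyceride-rich lipoproteins, is abundant in muscle, heart and fat, and together with Lrp8 is a receptor for reelin in the brain.

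Values are the deposited ones, read as log2, and a gene was counted as expressed where the highest value compared reached 8.50, which is the median over all genes of their mean value. Across all 23332 clusters the array medians lay between 7.96 and 8.03, and correlations between arrays between 0.964 and 0.988. The muscle identity of the cultures was checked on 8 marker genes: Des, which encodes desmin, was at 13.17 to 13.63 on the 4 arrays, and all 8 reached the expressed level in both differentiating groups. MUNC itself was not analysed here, so the depth of the knockdown is unknown. On the siMUNC differentiating array, relative to the control differentiating array, 7 of 12 listed myogenic genes were past 2-fold lower (median log2 difference -1.20), against 2.29% of expressed genes, and 8 of 9 mitotic genes past 2-fold higher (median 1.19), against 1.99%. The part of that shift in the results below was not tested.

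Cldn1 showed the widest peak. It read 6.25 in control proliferating, 6.77 in siMUNC proliferating and 6.09 in control differentiating cells, against 9.37 in siMUNC differentiating cells. It thus lay below the expressed level on 3 arrays, between percentiles 17.2 and 27.5 of all genes, and at percentile 62.9 in siMUNC differentiating cells. The siMUNC differentiating value was 9.73-fold above the control differentiating one, 8.72-fold above the control proliferating one and 6.08-fold above the siMUNC proliferating one. No other of the 14860 genes differed by as much in that direction between the siRNAs in differentiating cells.

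Cd200r2 was also dim on 3 arrays. It read 6.16 in both proliferating groups, 6.56 in control differentiating and 8.57 in siMUNC differentiating cells, which is just above the expressed level. The last value was 4.04-fold above control differentiating cells and 5.31-fold above siMUNC proliferating cells. A further cluster (6841140), which the annotation pairs with both Cd200r4 and Cd200r2 and which therefore names neither, read 4.36, 4.71 and 4.15 on the other arrays and 6.11 in siMUNC differentiating cells. It was also highest on that array, by 2.66-fold over the next, although dim on every array. The receptor genes of this family are close relatives in a row on chromosome 16, and signal shared among them by cross-hybridisation cannot be told apart here.

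Rerg and Vldlr began from higher values. Rerg stood at 7.37 (control) and 7.31 (siMUNC) in proliferating cells and at 8.66 and 9.73 after the change of medium. It was already 2.43-fold higher after the change of medium with the control siRNA, and 5.33-fold higher with siMUNC. Vldlr read 7.66 and 7.75 in control and siMUNC proliferating cells, 8.42 in control differentiating and 9.75 in siMUNC differentiating cells, which is a 1.69-fold difference with the control siRNA and a 4.00-fold difference with siMUNC. The control differentiating array came second for Rerg and Vldlr, as it did for Cd200r2, whereas for Cldn1 it was the lowest. The Cldn1 values on the control arrays were both dim (6.25 proliferating and 6.09 differentiating). Their order turned once values under the 25th percentile of each array were set to it. The margins over the next array were 2.10-fold for Rerg and 2.53-fold for Vldlr. The Rerg margin is the narrowest of the 4, and an offset of 50 on the linear scale took it from 1.07 to 0.98 on the log2 scale, below 2-fold.

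**Figure D1:**
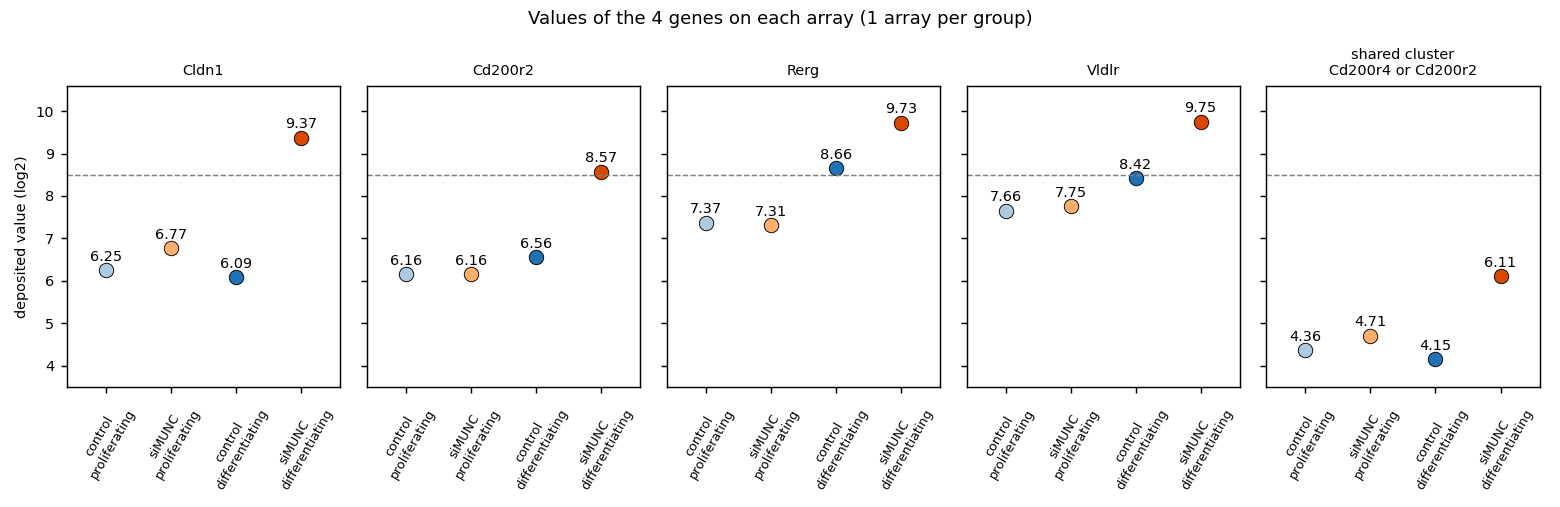
Deposited log2 values (vertical axis) of Cldn1, Cd200r2, Rerg, Vldlr and the cluster shared by Cd200r4 and Cd200r2 on the 4 arrays (horizontal axis), 1 point per array and no error bars because each group is 1 array. The dashed line is the expressed level of 8.50, which Cldn1, Cd200r2 and Vldlr pass on the siMUNC differentiating array alone, Rerg passes on both differentiating arrays, and the shared cluster nowhere.

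Before the change of medium the 4 genes differed by less than 2-fold between the siRNAs. In proliferating cells the log2 difference of siMUNC from control was 0.52 for Cldn1, 0.10 for Vldlr, 0.01 for Cd200r2 and -0.06 for Rerg. None of the 4 reached the expressed level there, where 0.0925% of expressed genes and 0.384% of dimmer ones were past 2-fold higher. The sign for Cd200r2 turned under quantile normalization and cyclic loess, and that for Rerg when the arrays were centred on their medians.

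In differentiating cells all 4 were past 2-fold higher with siMUNC, as were 152 of 7635 expressed genes (1.99%). Counted from the highest, Cldn1 was at place 1, Cd200r2 at 3, Vldlr at 38 and Rerg at 119. The genes were picked on this contrast, so nothing is read from their share.

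The differentiation difference, which sets differentiating against proliferating cells, spread more widely over the 4 genes in control than in siMUNC cells. With the control siRNA it was -0.16 for Cldn1 (0.06 once values under the 25th percentile of each array were set to it), 0.40 for Cd200r2, 0.76 for Vldlr and 1.28 for Rerg. Rerg is then past 2-fold, as were 5.21% of expressed genes in that direction. With siMUNC the same differences were 2.60, 2.41, 2.00 and 2.41, all past 2-fold, against 2.92% of expressed genes, and at places 33, 41, 57 and 39 of 7672. The difference between the effects was 2.76 for Cldn1, 2.01 for Cd200r2, 1.24 for Vldlr and 1.13 for Rerg, and 2.96% of 7968 expressed genes were past 2-fold higher by this measure. The value of Cldn1 was the highest of all genes. The differentiation difference with siMUNC, the difference between the effects and the knockdown in differentiating cells share the siMUNC differentiating array, so a high value there enters each of those.

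**Figure D2:**
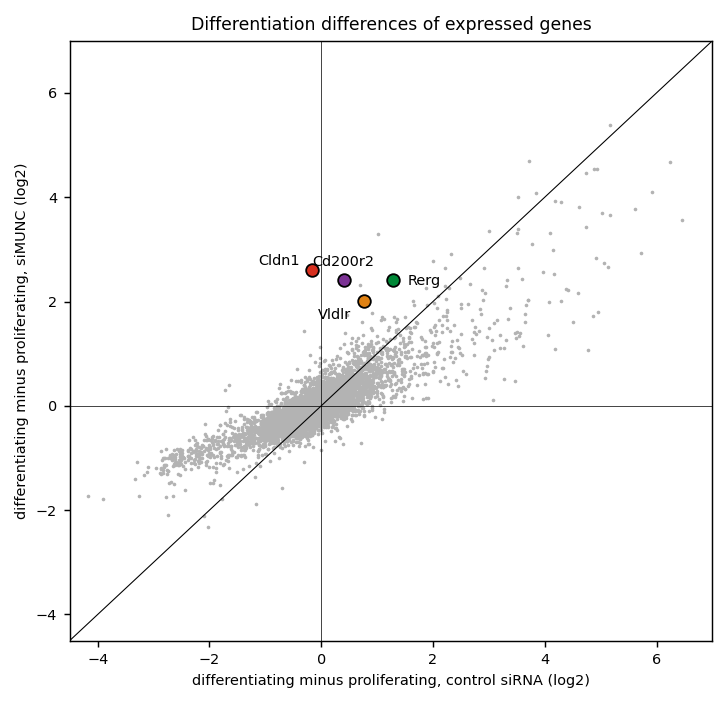
Log2 difference between differentiating and proliferating cells with the control siRNA (horizontal axis) and with siMUNC (vertical axis) for the 7968 expressed genes in grey, with equal differences on the diagonal. Cldn1, Cd200r2, Vldlr and Rerg all lie above the diagonal, at 2.00 to 2.60 on the vertical axis and from -0.16 to 1.28 on the horizontal one.

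A margin over the next highest array places the genes in the series. Of 7968 expressed genes, 1343 (16.9%) had their highest value in siMUNC differentiating cells, and 8 (0.100%) had it there by more than 2-fold. The 4 genes are among these 8, at places 1 (Cldn1, margin 2.60), 2 (Cd200r2, 2.01), 6 (Vldlr, 1.34) and 7 (Rerg, 1.07). They were chosen for this peak, so nothing is read from their places or their share. Cldn1, Cd200r2 and Vldlr also count as expressed through that array alone. Such peaks were more frequent in control differentiating cells, with 156 genes (1.96%). They were fewer in proliferating cells, with 3 for the control siRNA and 1 for siMUNC.

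The other genes past 2-fold by this margin were Sfrp2, Il33, Perp and Ccn3. Sfrp2, a secreted Wnt modulator, read 8.02, 7.50 and 9.03 in control proliferating, siMUNC proliferating and control differentiating cells and 10.80 in siMUNC differentiating cells. Il33, an alarmin cytokine, read 8.10, 9.11 and 9.18 on those arrays and 10.82 in siMUNC differentiating cells. Perp, a desmosomal protein induced by p53, read 9.18, 9.14 and 8.87 against 10.58, and Ccn3, a matricellular protein, 8.25, 8.10 and 9.56 against 10.57. All 4 were at or above the expressed level on at least 1 further array, unlike Cldn1, Cd200r2 and Vldlr. Just inside 2-fold were Nptx1, a neuronal pentraxin (margin 0.95), Vegfc, a lymphatic growth factor (0.86), Angptl4, an inhibitor of lipoprotein lipase (0.82), and Enpp5 (0.81).

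**Figure D3:**
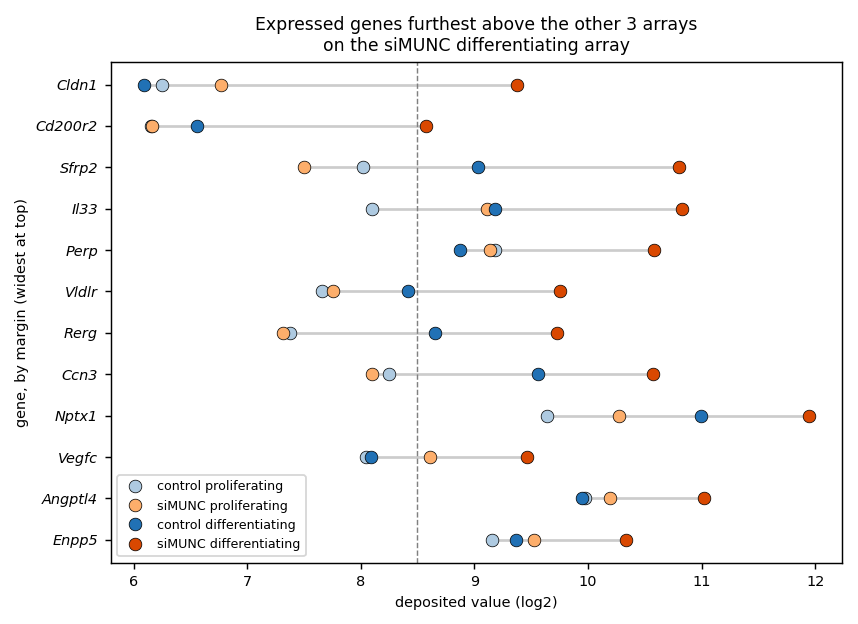
Deposited log2 values (horizontal axis) of the 12 expressed genes that stand furthest above the other 3 arrays in siMUNC differentiating cells, 1 point per array, with the expressed level of 8.50 dashed. Cldn1 and Cd200r2 start lowest, and for Cd200r2, Rerg, Vldlr, Sfrp2, Il33, Ccn3 and Nptx1 the control differentiating array is the next highest.

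Likeness of course was measured as the distance between the 4 log2 values of a gene, each centred on the gene's mean, over 4 arrays. The 4 genes were picked for a shared peak on these arrays, so their closeness to each other was largely set by that choice. Other genes with a wide margin in siMUNC differentiating cells lie near them for the same reason, so a short distance carries no test. The gene nearest to Rerg was Ccn3, at a distance of 0.09, well inside the 0.52 of the next, Vldlr. Vldlr was nearest to Cd200r2 (0.48), followed by Nptx1 (0.49) and Rerg. Fam20a, a pseudokinase of the secretory pathway, and Sulf2, an extracellular sulfatase, were its next neighbours (0.54 and 0.55). For Cd200r2 the nearest were Vldlr, Il33 (0.76), Rerg (0.80), Sfrp2 (0.86) and Perp (0.87). Cldn1 had Cd200r2 as its nearest gene, at 0.99, ahead of Il33 (1.22), Perp (1.35), Vldlr (1.42) and Vegfc (1.56), while Rerg came at place 10, at 1.73. By this distance Cldn1 was thus matched less closely than the other 3. The values were not scaled, so the distance also grows with the size of a gene's differences, which were widest for Cldn1. With levels left in, 0 or 1 of the 5 nearest genes of each were the same, so the likeness is one of differences between arrays and not of level.

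The promoters of the genes are shown because MyoD, whose gene lies next to MUNC, binds the E-box. RefSeq windows from 250 bases before to 50 bases after a gene start were matched for 3 of the 4 genes, Cldn1, Cd200r2 and Vldlr, the last with a pair of starts (build GRCm38.p6). They are printed 5′ to 3′ on the strand of the gene, with every E-box (CANNTG) in capitals. The regions are chr16:26371790-26372089 on the minus strand for Cldn1, and, on the plus strand, chr16:44866847-44867146 for Cd200r2, chr19:27216234-27216533 for the first start of Vldlr and chr19:27216770-27217069 for the second.
Cldn1: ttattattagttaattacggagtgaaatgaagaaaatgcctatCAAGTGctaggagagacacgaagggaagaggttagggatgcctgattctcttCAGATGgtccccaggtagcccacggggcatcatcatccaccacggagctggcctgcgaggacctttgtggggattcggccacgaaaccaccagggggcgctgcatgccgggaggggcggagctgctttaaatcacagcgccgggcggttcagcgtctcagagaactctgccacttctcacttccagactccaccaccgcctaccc
Cd200r2: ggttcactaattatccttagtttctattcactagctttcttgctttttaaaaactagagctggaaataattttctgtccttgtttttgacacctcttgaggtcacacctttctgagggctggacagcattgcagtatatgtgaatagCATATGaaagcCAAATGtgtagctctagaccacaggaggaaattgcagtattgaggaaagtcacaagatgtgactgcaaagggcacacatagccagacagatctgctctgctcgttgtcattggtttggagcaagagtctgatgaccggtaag
Vldlr, first start: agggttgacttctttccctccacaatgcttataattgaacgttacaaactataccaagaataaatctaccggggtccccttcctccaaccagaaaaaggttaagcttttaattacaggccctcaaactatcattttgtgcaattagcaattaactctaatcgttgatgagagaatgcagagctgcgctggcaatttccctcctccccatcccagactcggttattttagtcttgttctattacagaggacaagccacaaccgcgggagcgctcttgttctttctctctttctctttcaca
Vldlr, second start: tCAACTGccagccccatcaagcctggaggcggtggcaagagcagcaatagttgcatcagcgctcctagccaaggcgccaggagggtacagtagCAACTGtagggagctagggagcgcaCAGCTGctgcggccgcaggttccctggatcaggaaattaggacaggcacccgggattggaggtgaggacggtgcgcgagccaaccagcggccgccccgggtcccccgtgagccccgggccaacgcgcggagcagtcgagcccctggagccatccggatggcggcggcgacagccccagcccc

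The windows differ in their make-up. GC content was 56% for Cldn1, 42% for Cd200r2, 43% for the first and 68% for the second start of Vldlr, against a median of 52.7% over 32851 windows. CpG dinucleotides numbered 15, 2, 8 and 23, against a median of 7. On both strands, Cldn1 and Cd200r2 held 2 E-boxes each, the first start of Vldlr 0 and the second 3, where 72.3% of all windows hold at least 1. The form CAGCTG, itself an E-box, was found once, in the second Vldlr window (16.3% of all windows), and the form CACCTG in none of the 4 (20.2%). GC boxes (GGGCGG) were found in the Cldn1 window, with 2, and in the second Vldlr window, with 1 (35.7% of all windows). A CCAAT box (CCAAT) occurred once in the Cd200r2 window and once in the second Vldlr window (37.4%). The AP-1 motif TGANTCA (7.81%), the TEAD motif GGAATG (14.7%) and the TATA box TATAAA (13.6%) were found in none of the 4. No searched motif was thus present in all 4 windows.

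The genes beside the 4 on their chromosomes were read for the same contrasts. Of the 2 genes on either side of each in the RefSeq order, 5 of 16 were measured, and of 24 once the next protein-coding genes were added after their values could be seen, 13. None of the 13 was past 2-fold higher with siMUNC in differentiating cells or past 2-fold by the margin. Over all genes 1.27% and 0.0538% were, so 13 genes are too few to read anything from that count. Of the 13, 5 had their highest value on that array, as did 20.5% of all genes, with P3h2 and Ccdc80 the widest at margins of 0.47 each, followed by Smarca2 (0.15), Cd200r1 and Cd200r3 (0.06 each). For the knockdown in differentiating cells the closest were P3h2, a collagen prolyl hydroxylase beside Cldn1 (9.20 in control and 10.10 in siMUNC differentiating cells, a difference of 0.90), and Eps8, an actin regulator on the far side of Ptpro from Rerg (10.46 and 11.27, 0.81). Cldn16, the next claudin after Cldn1, read 5.95 and 5.99. Trp63, on the other side of P3h2, went the other way and was past 2-fold lower (8.61 and 7.59, -1.02). Around Vldlr, Kcnv2 read 6.22 and 6.21, and Smarca2, a chromatin remodeller, 9.05 and 9.20. Pde6h, next to Rerg, read 6.97 and 6.84.

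The families of the 4 genes were read from lists made for these comparisons, each without the gene itself. Over all 14860 genes 52.0% were above 0 and the median was 0.01 for the knockdown in differentiating cells, with 1.27% past 2-fold higher.

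Of 38 other measured tight junction genes, 23 were above 0 and 15 below (median 0.04), with none past 2-fold higher. Of the other claudins, Cldn12 came nearest to Cldn1 in direction, at 9.76 in control and 10.73 in siMUNC differentiating cells (0.97), but it was highest in siMUNC proliferating cells (11.40). Ocln, which encodes the strand protein occludin, read 8.15 and 8.79 (0.65), and Mpdz, a scaffold of the junction, 9.66 and 10.09 (0.43). Cldn2, a pore-forming claudin, went the other way below the expressed level, from 7.69 in control to 5.38 in siMUNC differentiating cells (-2.31), with Patj, a polarity scaffold, next (10.23 and 9.27, -0.96) and Cldn15 after it (8.59 and 8.22, -0.38). Patj was past 2-fold higher on differentiation in control cells (1.61). The scaffold Tjp1, which anchors claudins to actin, was at 11.27 to 11.53 on all 4 arrays. Of 12 epithelial markers measured, 5 were above 0 and 7 below. None was past 2-fold higher, but with 1.27% of all genes so, 12 genes are too few to read that count. Their summed linear level lay between 1938 and 2185 on the 4 arrays, and Ocln was the only one to reach the expressed level on any. Epcam read 6.66 and 6.54 and Cdh1, which encodes E-cadherin, 8.37 and 7.47 in control and siMUNC differentiating cells. Krt19 (6.87 and 7.20) and Cldn7 (7.12 and 7.36) went the other way. Snai1 and Snai2, whose products bind E-boxes of the CLDN1 promoter in human cells and repress it, read 9.02 and 9.24, and 12.53 and 12.75.

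In the CD200 receptor list, 4 of the 9 genes other than Cd200r2 were above 0 (median -0.10) and none was past 2-fold. The related receptors Cd200r1 (4.70 in control and 4.78 in siMUNC differentiating cells) and Cd200r3 (4.93 and 5.31) stayed dim on every array. The ligand gene Cd200 was abundant and lower with siMUNC in both states, with 11.43 (control) and 9.96 (siMUNC) before the change of medium (-1.47) and 12.08 and 11.26 after it (-0.83). The adaptor genes were dim: Tyrobp read between 5.42 and 5.82 over the 4 arrays, Hcst between 5.98 and 6.45, and Fcer1g between 5.76 and 6.50. Dok1, an adaptor used by Cd200r1, read 7.48 in control and 8.42 in siMUNC differentiating cells (0.95) and 8.55 and 8.73 in proliferating cells. Dok2, of the same list, read 6.97 and 6.88 in differentiating cells (-0.10) and stayed dim on every array. Rasa1, a Ras GTPase activator, read 11.24 and 11.68 in differentiating cells. Of 11 macrophage markers 5 were above 0 and none past 2-fold higher, with a summed linear level of 1060 in control and 1290 in siMUNC differentiating cells, and 1376 and 1360 in the respective proliferating cells. Cd68 and Cd14 alone reached the expressed level on any array. Both were higher with siMUNC in differentiating cells (8.10 and 8.58, 0.48, and 7.63 and 8.43, 0.80), while 6 of the 11 were below 0. Ptprc, the pan-leukocyte marker, read between 4.98 and 5.15. Of 8 mast cell and basophil markers 6 were above 0 and Mcpt8, a basophil protease, was past 2-fold higher (7.22 and 9.18, and 8.94 and 8.87 in control and siMUNC proliferating cells). Next were Fcer1a (4.19 and 4.71, 0.52) and Hdc (6.96 and 7.45, 0.49), both below the expressed level on every array. Cpa3 stayed between 4.60 and 4.71. The summed linear level of that list was 619 in control and 1110 in siMUNC differentiating cells, and 1013 and 1003 in the respective proliferating cells. Mcpt8 was its highest member on each array and the only one to reach the expressed level. The list median was 6.42 in control and 6.41 in siMUNC differentiating cells, so the sum mostly follows Mcpt8.

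Of 26 other Ras-like GTPase genes, 17 were above 0 (median 0.08), and none was past 2-fold. The highest were Rap2b (9.34 in control and 9.98 in siMUNC differentiating cells, 0.64), Nras (11.73 and 12.29, 0.56) and Rap2a (8.67 and 9.17, 0.51), and the lowest Rrad (8.46 and 7.92, -0.53), Nkiras1 (9.80 and 9.40, -0.40) and Rap1a (12.20 and 11.88, -0.31). Nras and Rap2a were both highest in siMUNC proliferating cells, and Gem, a calcium channel regulator, was the expressed relative whose order of arrays matched that of Vldlr (9.26 and 9.59 in control and siMUNC cells before and 10.11 and 10.51 after the change of medium). Esr1, the estrogen receptor gene, was past 2-fold higher on differentiation in control cells (8.09 and 9.26, 1.18), as Rerg was, but read 9.20 with siMUNC, close to the control.

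Of 28 other genes of the LDL receptor family and reelin pathway, 18 were above 0 (median 0.11) and 2 past 2-fold higher: Plau (10.92 in control and 12.34 in siMUNC differentiating cells, 1.43) and Plaur (7.89 and 9.00, 1.11), the urokinase protease and its receptor. Both were also high in proliferating cells (11.89 and 10.33 with the control siRNA), unlike Vldlr. The next was Crk, an adaptor of reelin signalling (11.01 and 11.86, 0.85). Lrp8, the other reelin receptor, ran against Vldlr on differentiation: it read 10.63 (control) and 10.27 (siMUNC) before the change of medium and 8.70 and 9.29 after it, a difference of -1.93 with the control siRNA and -0.98 with siMUNC. Lrp4, a receptor of the neuromuscular junction, was higher on differentiation by similar amounts with either siRNA (1.88 and 1.93). Lpl, the lipase that supplies Vldlr with its ligand, was past 2-fold higher on differentiation with siMUNC (8.71 and 9.91, 1.19) and read 9.36 and 9.78 with the control siRNA. Lowest in the knockdown in differentiating cells were Apoe, which encodes a ligand of the receptor (8.63 and 7.98, -0.65), the kinase gene Fyn (12.50 and 11.87, -0.63), which was past 2-fold higher on differentiation in control cells (1.03), and Mylip, whose product targets the receptor for degradation (10.54 and 9.92, -0.62). Reln (6.45 and 6.72) and Dab1, the adaptor of the reelin receptors (5.99 and 5.91), were dim. Adipocyte and endothelial markers, other cell types rich in Vldlr, had none past 2-fold for the knockdown in differentiating cells among 7 and 8 measured. Over all 14860 genes 189 were past 2-fold higher and 214 lower, so these lists are too short to read that count. Their summed linear levels were 2028 and 1965, and 670 and 734, in control and siMUNC differentiating cells. Pparg was the highest adipocyte marker (10.28 and 10.20).

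**Figure D4:**
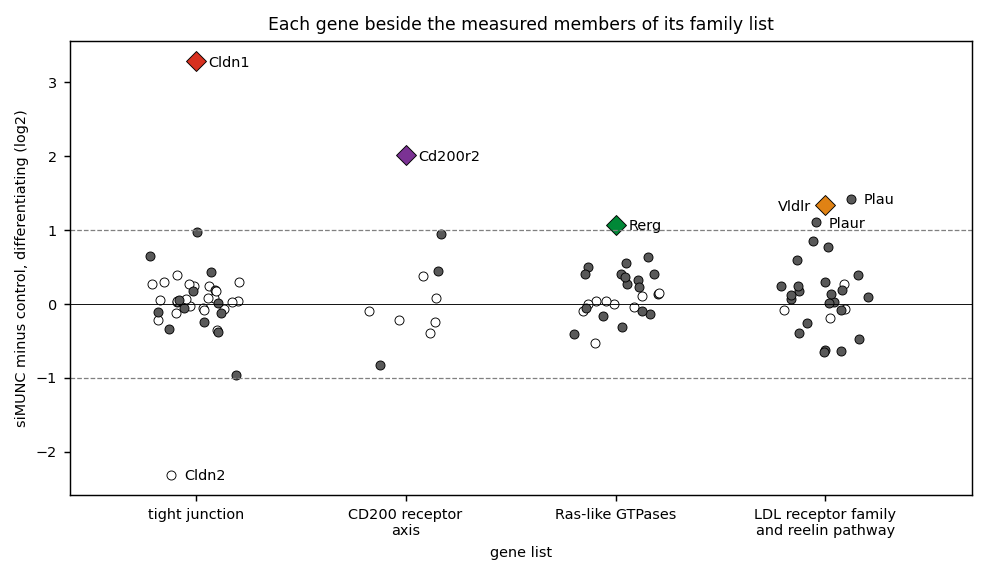
Log2 difference between siMUNC and control differentiating cells (vertical axis) for the measured members of 4 gene lists (horizontal axis), with 2-fold dashed, genes that reach the expressed level on any array filled and dimmer ones open. Cldn1, Cd200r2 and Rerg (diamonds) lie above every other member of their lists, and Vldlr lies between Plau at 1.43 and Plaur at 1.11. The 4 genes were picked on this contrast, so their high places were largely set by that choice.

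In the mitotic list all 9 genes read higher in proliferating cells of either siRNA than in siMUNC differentiating cells, as Mki67 shows (10.50 and 9.86 against 8.86, with 7.67 in control differentiating cells). Cldn1, Cd200r2, Rerg and Vldlr read higher in siMUNC differentiating cells than on either proliferating array. They were chosen for that peak, so the contrast with the mitotic list was fixed in advance and nothing is read from it. Myog, which encodes myogenin, read 8.43 and 7.45 in control and siMUNC cells before and 12.21 and 10.56 after the change of medium. It was thus higher on differentiation with either siRNA, as Rerg and Vldlr were, but lower with siMUNC than with the control siRNA in differentiating cells, where 10 of the 12 myogenic genes were below 0 and Myf5 (0.62) and Myf6 (0.21) above it.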

How the data were processed

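The authors deposited a table of log2 expression values, 1 per array for each transcript cluster. Affymetrix Expression Console made them, per the submitters' processing notes; its version, its settings and the build of the genome were not given in the sources used here. A log2 scale was inferred from the range of the deposited values (2.56 to 14.3), and every fold assumes it. Clusters were named through the platform annotation, and a gene with several clusters took the one with the highest mean. A comparison is the difference between arrays, counted past an absolute log2 value of 1 (2-fold). With 1 array per group no test was run. The margin is the value in siMUNC differentiating cells minus the highest of the other 3 arrays.

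The members and lists were chosen with earlier results of these data known. Named genes are the members, 2 RefSeq neighbours on either side, list members past 2-fold or among the 3 highest or lowest for the knockdown in differentiating cells, the 5 genes nearest in profile and the 12 widest margins, leaving out gene models and olfactory or vomeronasal receptors. Of these, the ones that bear on the 4 genes are printed. Alternatives were median centring, quantile normalization and cyclic loess (limma 3.58.1), an offset of 50, a floor at the 25th percentile, no filter on dim genes, 1.5-fold and the mean of clusters. Scripts ran in Python 3.11.15 and R 4.3.3.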

Additional observations from a re-analysis of the deposited data

Results flagged for a closer look

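With 1 array per group, a result is listed here where its effect pointed one way in one setting and the other way in the other, for the 4 genes at any size and for other genes of the lists, neighbours and nearest or widest-margin genes where both sides exceed 0.5. None of these differences was tested, and the smaller side is close to 0 for Cldn1 and Rerg. Cldn1 differed by -0.16 on differentiation in control cells and by 2.60 in siMUNC cells, which are 2.76 apart. Rerg differed by -0.06 between the siRNAs in proliferating cells and by 1.07 in differentiating cells, which are 1.13 apart. Between the siRNAs in the same states, Sfrp2 differed by -0.52 and 1.77, which are 2.29 apart. Mki67, of the mitotic list, differed by -0.64 and 1.19 (1.83 apart), and Nefl, a neurofilament gene of the neuronal markers, by -0.52 and 1.16 (1.68 apart).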

How the results depend on the processing

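No paired analysis was possible because each group has 1 array, and for the same reason no replicate could be left out. Among 150 values of the 4 genes under an alternative, 24 used the mean of clusters and could not differ, since each gene has 1 cluster of its own. Of the 150, 146 kept their side of 2-fold and stayed within 1.5 times. The other 4 came with the offset of 50: the knockdown in differentiating cells moved from 3.28 to 2.59 for Cldn1 and to 0.98 for Rerg, the margin of Rerg also to 0.98, and the differentiation difference of Cd200r2 in siMUNC cells from 2.41 to 1.82. Under every scaling, offset and floor run, all 4 genes were highest in siMUNC differentiating cells. Averaging Cd200r2 with its shared cluster, an alternative added after seeing the data, moved no call. Counts of genes past the threshold followed its size: at 1.5-fold there were 259 for the knockdown in proliferating cells (30 at 2-fold), 958 in differentiating cells (327), 2022 for differentiation in control (926) and 940 in siMUNC cells (327), 1007 for the difference of effects (378) and 34 for the margin (8). In proliferating cells the count was 19 with the offset and 87 without the filter on dim genes. Detection calls were not used here, so folds of Cldn1 and Cd200r2, dim on 3 arrays, are the least certain in size.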
